A study of Arabidopsis thaliana with 8 samples.

Results

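SPCH, MUTE, FMA and STOMAGEN are 4 regulators of the stomatal lineage, the series of leaf epidermal cells that ends in a pair of guard cells around a pore. FMA is the gene usually written FAMA, and STOMAGEN is also named EPFL9. Each gene was taken as the probe set that the platform annotation assigns to it, which gave 4 probe sets of the 22810 in the deposited table, and 4 genes of the 13356 with a named probe set. The probe sets were 248247_at for SPCH (AT5G53210), 256395_at for MUTE (AT3G06120), 257247_at for FMA (AT3G24140) and 254794_at for STOMAGEN (AT4G12970). One probe set therefore stands for each gene, and no second probe set was there to check it.

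RNA came from vegetative shoots of Arabidopsis thaliana, ecotype Ler, grown in soil under short days of 10 h of light at 20 °C. The 4 groups were vegetative apices of young seedlings (Apex_5DAS, where DAS stands for days after sowing), vegetative apices at day 14 (Apex_14DAS), expanding leaves 1 and 2 at day 14 (EL_14DAS) and mature leaves at day 35 (ML_35DAS). The titles place the youngest apices at day 5, whereas the source names place them at day 7, so their age is not settled. Each group had 2 Affymetrix ATH1 arrays, on which a transcript is read by a set of short probes. The labels name no treatment or transgene, and all groups share the Ler background, which carries a loss-of-function allele of ERECTA, a receptor kinase gene of the stomatal pathway.

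The 3 transcription factors act one after another. SPCH (SPEECHLESS) starts the asymmetric divisions by which a protodermal cell enters the lineage, MUTE ends those divisions and commits the meristemoid to become a guard mother cell, and FMA stops division after the last, symmetric one and completes the guard cells. All belong to the basic helix-loop-helix family and work with the partners ICE1 and SCRM2. STOMAGEN is a secreted peptide made in the mesophyll below the epidermis. It raises stomatal density by competing with the inhibitory peptides EPF1 and EPF2 at receptors of the ERECTA family and TMM. Young, dividing leaf epidermis is where the early factors are known to act, and guard cells persist in the mature leaf.

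Values are MAS5 intensities, multiplied so that all arrays had the same trimmed mean. They have no absolute unit, and levels of different genes cannot be set against each other because each probe set has its own response. The number of arrays limits the precision. The labels do not say whether replicate arrays came from separate plants, so p-values measure the spread between arrays. Replicates correlated with r between 0.908 and 0.978 over the 9906 genes tested. The lowest r belonged to Apex_5DAS. A difference of over 2-fold between replicates was seen for 12.7% of its genes, against 2.60% to 6.59% in the other groups. Apex_5DAS replicate 1 also stood apart in control probe sets: a 25S rRNA probe set read 193 there, where the other 7 arrays ran from 0.961 to 21.3, and a probe set for the added dap transcript (3′ part, r2 version) read 1.41, where they ran from 24.3 to 108. Calls and values of the comparisons with Apex_5DAS are therefore also given without that array. The shared estimate of the spread draws on all arrays, so leaving out an Apex_5DAS array can also change a call between other groups.

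SPCH, the entry factor, was high in older apices and expanding leaves, lower in the youngest apices and lowest in mature leaves. Its scaled intensity was 58.9 and 92.3 in Apex_5DAS, 219 and 209 in Apex_14DAS, 179 and 199 in EL_14DAS, and 11.9 and 5.50 in ML_35DAS. No array of the Apex_14DAS and EL_14DAS groups overlapped the other groups, and both mature leaf arrays lay below every other array. Within its own array, SPCH exceeded 54.5% and 60.3% of the probe sets in Apex_5DAS, 80.3% and 79.1% in Apex_14DAS, 77.6% and 79.6% in EL_14DAS, but only 32.8% and 20.7% in ML_35DAS. On the log2 scale, group means were 6.35 ± 0.41 in Apex_5DAS, 7.79 ± 0.04 in Apex_14DAS, 7.62 ± 0.11 in EL_14DAS and 4.01 ± 0.40 in ML_35DAS (SD, n = 2 each).

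MUTE, the commitment factor, was at low signal throughout. Its scaled intensity was 1.66 and 18.9 in Apex_5DAS, 29.3 and 23.3 in Apex_14DAS, 32.2 and 30.2 in EL_14DAS, and 6.74 and 1.87 in ML_35DAS. The Apex_5DAS arrays differed so much that they enclosed both mature leaf arrays, while the arrays of Apex_14DAS and EL_14DAS all lay above both. MUTE was under the 30th percentile of its array on Apex_5DAS replicate 1 and on both mature leaf arrays, and it reached at most the 42.3 percentile, in EL_14DAS. Group means on the log2 scale were 3.98 ± 1.07 in Apex_5DAS, 5.08 ± 0.18 in Apex_14DAS, 5.28 ± 0.05 in EL_14DAS and 3.56 ± 0.42 in ML_35DAS (SD, n = 2 each).

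FMA, the factor of guard cell completion, was highest in expanding leaves, followed by mature leaves. Its scaled intensity was 63.9 and 36.9 in Apex_5DAS, 38.8 and 37.4 in Apex_14DAS, 94.1 and 118 in EL_14DAS, and 75.5 and 72.2 in ML_35DAS. Both leaf groups lay above all 4 apex arrays, and the 2 apex groups overlapped. The separation of the 2 leaf groups depended on the scaling: as deposited, EL_14DAS (90.3 and 124) and ML_35DAS (99.8 and 90.0) overlapped. Group means on the log2 scale were 5.82 ± 0.48 in Apex_5DAS, 5.52 ± 0.03 in Apex_14DAS, 6.82 ± 0.22 in EL_14DAS and 6.35 ± 0.04 in ML_35DAS (SD, n = 2 each).

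STOMAGEN, the inducing peptide, had its highest signal in expanding leaves. Its scaled intensity was 233 and 138 in Apex_5DAS, 384 and 366 in Apex_14DAS, 615 and 786 in EL_14DAS, and 356 and 276 in ML_35DAS. Both Apex_5DAS arrays were the lowest and both EL_14DAS arrays the highest, with Apex_14DAS above ML_35DAS in between and no overlap among the groups. The middle order depended on the scaling: as deposited, ML_35DAS (470 and 344) lay above Apex_14DAS (339 and 331). STOMAGEN exceeded between 69.8% and 95.2% of the probe sets on every array. Group means on the log2 scale were 7.55 ± 0.51 in Apex_5DAS, 8.58 ± 0.05 in Apex_14DAS, 9.46 ± 0.25 in EL_14DAS and 8.33 ± 0.25 in ML_35DAS (SD, n = 2 each).

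**Figure D1:**
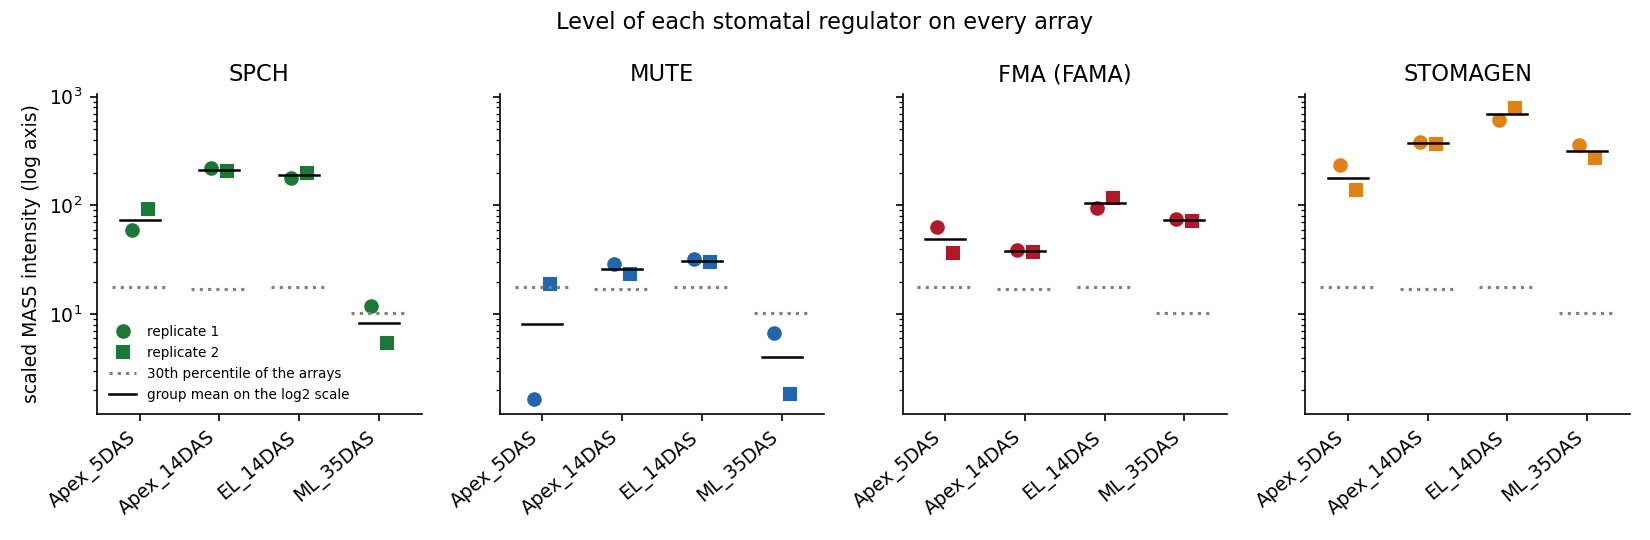
Scaled MAS5 intensity (log axis) of SPCH, MUTE, FMA and STOMAGEN on each of the 8 arrays, by group in order of development. Circles are replicate 1, squares replicate 2, black lines the group mean on the log2 scale, and dotted lines the mean over the group's arrays of their 30th percentile of intensity. SPCH drops to 11.9 and 5.50 in ML_35DAS, MUTE is near or under the dotted line in Apex_5DAS and ML_35DAS, and FMA and STOMAGEN are highest in EL_14DAS.

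Differences were tested with limma across all 9906 genes in 1 fit of the 4 groups, with Benjamini-Hochberg adjustment and a threshold of 0.05. Fold changes are on the scale of log2(intensity + 7.70), which understates the change of low values. All 4 regulators passed the moderated F test for any difference among the groups, as did 35.4% of all genes. The adjusted p was 4.26e-05 for SPCH, 0.00279 for STOMAGEN, 0.0165 for FMA and 0.0404 for MUTE. Only 0.575% of genes had a lower p in that test than SPCH, whereas 31.9% had a lower p than MUTE. An exact permutation test of each gene alone, over the 105 distinct ways to split 8 arrays into 4 pairs, gave p = 0.00952 for SPCH and for STOMAGEN, the smallest p it can give. The same exact permutation test gave p = 0.0286 for FMA and p = 0.171 for MUTE, unadjusted. Of the 24 pairwise comparisons, 6 per gene, 13 passed the threshold. Of all genes, from 2.56% to 32.6% passed in a pairwise comparison, in either direction. Among the 13 calls, 4 passed whichever array was left out: the 3 falls of SPCH in mature leaves and the rise of STOMAGEN in expanding leaves over the youngest apices. The share of all genes with such calls was not counted. Without Apex_14DAS replicate 1 or 2, EL_14DAS replicate 2, or either mature leaf replicate, FMA missed the threshold of the F test (adjusted p 0.0534 to 0.0737). MUTE missed it without any one array of Apex_14DAS, EL_14DAS or ML_35DAS (adjusted p 0.0798 to 0.157).

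Mature leaves over expanding leaves compares leaf stages that also differ in plant age, day 35 against day 14. Stage and age cannot be told apart here. SPCH, MUTE and STOMAGEN passed as lower, 3 of 4 regulators, while 14.5% of all genes passed as lower and 21.4% in either direction. SPCH fell by 3.61 ± 0.28 on the log2 scale, to a mean intensity of 8.69 in ML_35DAS, against 189 in EL_14DAS, which is 12.2-fold lower (SE, limma adjusted p = 0.000121). Its ML_35DAS signal was near the constant that was added before log2, so the size of this fall depends on that constant, as the values for other constants show further on. STOMAGEN fell by 1.13 ± 0.27, 2.19-fold, to a mean of 316 in ML_35DAS, against 701 in EL_14DAS (adjusted p = 0.0156). That call was lost without EL_14DAS replicate 2, ML_35DAS replicate 1 or ML_35DAS replicate 2. It was also lost on the values as deposited, where all array medians are equal (fell by 0.78, limma adjusted p = 0.101). Results with equal array medians are from these deposited values throughout. MUTE fell by 1.73 ± 0.49, 3.31-fold, with both mature leaf arrays under the 30th percentile (adjusted p = 0.0315), and was lost without either EL_14DAS array (0.124 and 0.0995) or either ML_35DAS array (0.0939 and 0.174). FMA did not pass, with a change of −0.47 ± 0.28 (adjusted p = 0.234) and a 95% interval from −1.09 to 0.14. In a sample of whole organs, fewer cells of a type and less RNA per cell cannot be told apart.

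The comparison of mature leaves with apices at day 14 gave falls of SPCH and MUTE and a rise of FMA. Organ and plant age both differ in it and cannot be told apart. Lower calls covered 2 of 4 regulators and 22.2% of all genes, and higher calls 1 of 4 regulators and 10.3% of all genes, with 32.6% of genes passing in either direction. SPCH fell by 3.79 ± 0.28, 13.8-fold, to a mean of 8.69 in ML_35DAS, against 214 in Apex_14DAS (adjusted p = 1.76e-05). MUTE fell by 1.53 ± 0.49, 2.88-fold, to a mean of 4.304 in ML_35DAS, against 26.3 in Apex_14DAS (adjusted p = 0.0357). That fall missed the threshold without either Apex_14DAS array (adjusted p 0.16 and 0.1) or either ML_35DAS array (0.0792 and 0.193). FMA rose by 0.83 ± 0.28, 1.78-fold, to a mean of 73.9 in ML_35DAS, against 38.1 in Apex_14DAS (adjusted p = 0.0423), a call kept only when an Apex_5DAS array was the one left out. STOMAGEN did not pass: its change was −0.25 ± 0.27 (adjusted p = 0.497), and with equal array medians it was 0.26, the other sign.

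The same mature leaves over the youngest apices gave 1 fall and 1 rise among the 4 regulators, beside 21.3% of genes lower, 11% higher and 32.3% in either direction. Organ and plant age differ together here as well. SPCH fell by 2.34 ± 0.28, 5.08-fold, to a mean of 8.69 in ML_35DAS, against 75.6 in Apex_5DAS (adjusted p = 0.000266). Without Apex_5DAS replicate 1 it fell by 2.64. STOMAGEN rose by 0.78 ± 0.27, 1.71-fold, to a mean of 316 in ML_35DAS, against 186 in Apex_5DAS (adjusted p = 0.0477). That rise kept its call only without Apex_5DAS replicate 1, where it was 1.14, and was 0.41 without replicate 2 of that group. FMA changed by 0.53 ± 0.28, short of the threshold (adjusted p = 0.165). Without Apex_5DAS replicate 1, the FMA change was 0.87 and passed (adjusted p = 0.0312). MUTE differed by −0.42 ± 0.49 (adjusted p = 0.527), by −1.18 without Apex_5DAS replicate 1 and by 0.33 without replicate 2, so its direction rested on which of those arrays was used.

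Expanding leaves and apices were both sampled at day 14, which sets 2 tissues of 1 age side by side. FMA alone passed as higher in EL_14DAS, 1 of 4 regulators, with 2.83% of all genes higher and 6.3% in either direction. It rose by 1.30 ± 0.28, 2.47-fold, to a mean of 106 in EL_14DAS, against 38.1 in Apex_14DAS (adjusted p = 0.0240). Leaving out any array of Apex_14DAS, EL_14DAS or ML_35DAS ended the call (adjusted p 0.0604 to 0.163) while its size stayed between 1.15 and 1.46. STOMAGEN averaged 701 in EL_14DAS and 375 in Apex_14DAS, a change of 0.88 ± 0.27 that missed the threshold (adjusted p = 0.0860) and passed it without Apex_5DAS replicate 1 or 2 (0.0171 and 0.0178). SPCH changed by −0.18 ± 0.28 (adjusted p = 0.781), with a 95% interval from −0.80 to 0.45, and MUTE by 0.20 ± 0.49 (adjusted p = 0.862), with a 95% interval from −0.88 to 1.28. For SPCH that interval leaves room for a change of up to 0.80, and for MUTE it is wider.

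Expanding leaves and the youngest apices differ in both organ and plant age, which cannot be told apart. Against the youngest apices, expanding leaves had higher SPCH, FMA and STOMAGEN. These were 3 of 4 regulators, beside 4.87% of all genes higher and 9.75% in either direction. STOMAGEN rose by 1.91 ± 0.27, 3.75-fold, to a mean of 701 in EL_14DAS, against 186 in Apex_5DAS (adjusted p = 0.00280), and 0.535% of genes rose further. Without Apex_5DAS replicate 1 it rose by 2.27 (adjusted p = 0.00118). SPCH rose by 1.27 ± 0.28, 2.41-fold, to a mean of 189 in EL_14DAS, against 75.6 in Apex_5DAS (adjusted p = 0.0190). The SPCH call was lost without Apex_5DAS replicate 1 (0.97, adjusted p = 0.0633), EL_14DAS replicate 1 (0.0779) or EL_14DAS replicate 2 (0.12). FMA rose by 1.00 ± 0.28, 2.00-fold, to a mean of 106 in EL_14DAS, against 50.4 in Apex_5DAS (adjusted p = 0.0478). The rise of FMA passed only when Apex_5DAS replicate 1 was the array left out (1.34, adjusted p = 0.0130), and was 0.66 without replicate 2 of that group. MUTE differed by 1.30 ± 0.49 and did not pass (adjusted p = 0.130). Its change was 0.55 without Apex_5DAS replicate 1 (adjusted p = 0.472), and 2.05 without replicate 2, where it passed (adjusted p = 0.0111).

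Between the 2 apex stages, SPCH was the 1 regulator of 4 that passed, where 1.18% of genes were higher and 2.56% changed in either direction. It rose by 1.44 ± 0.28, 2.72-fold, to a mean of 214 in Apex_14DAS, against 75.6 in Apex_5DAS (adjusted p = 0.0302). This call held only when Apex_5DAS replicate 2 was left out, with a size between 1.15 and 1.73 over the arrays left out and an adjusted p of up to 0.187. The value without Apex_5DAS replicate 1 was 1.15 (adjusted p = 0.101). STOMAGEN averaged 375 in Apex_14DAS and 186 in Apex_5DAS, a change of 1.03 ± 0.27 that missed the threshold (adjusted p = 0.0762) but passed without Apex_5DAS replicate 1 (1.39, adjusted p = 0.0281). MUTE differed by 1.10 ± 0.49 (adjusted p = 0.250), by 0.35 without Apex_5DAS replicate 1 (adjusted p = 0.803) and by 1.86 without replicate 2 (adjusted p = 0.0189). FMA differed by −0.30 ± 0.28 (adjusted p = 0.586), and by 0.039 without Apex_5DAS replicate 1.

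**Figure D2:**
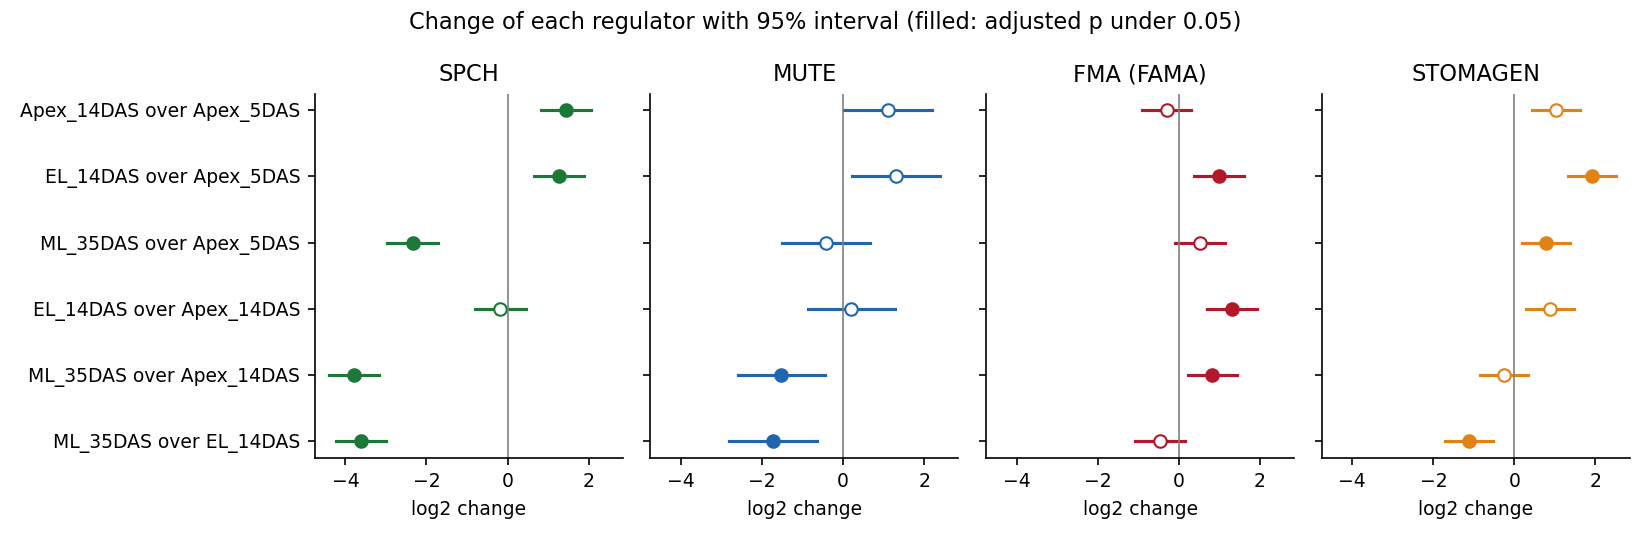
Log2 change of each regulator in the 6 pairwise comparisons, named as later or leaf group over its counterpart. Points are the limma estimates, bars their 95% intervals, and filled points passed an adjusted p of 0.05. The 3 falls of SPCH in ML_35DAS (−2.34, −3.79 and −3.61) lie farthest from 0, while the change of FMA in ML_35DAS over EL_14DAS has an interval that includes 0.

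The median change of all 9906 genes was −0.27 in ML_35DAS over EL_14DAS, −0.32 over Apex_14DAS and −0.26 over Apex_5DAS, and within 0.06 of 0 in the comparisons without mature leaves. With equal array medians the same 3 medians were 0.04, 0.11 and 0.08, so the sign of the median in every mature leaf comparison depended on the scaling. The share of higher genes among all calls moved with it: it was 32.4% in ML_35DAS over EL_14DAS (64.6% with equal medians, 48.1% after quantile normalisation), 31.7% over Apex_14DAS (66.5% and 48.7%) and 33.9% over Apex_5DAS (63.1% and 50%). In EL_14DAS over Apex_14DAS it was 44.9% and in Apex_14DAS over Apex_5DAS 46.1%, with 60.1% and 33.8% at equal medians. Relative to the median gene, in ML_35DAS over EL_14DAS SPCH changed by −3.34, MUTE by −1.46, STOMAGEN by −0.86 and FMA by −0.20. The fall of SPCH kept its direction and its call under every scaling, while its size depended on the added constant: in ML_35DAS over EL_14DAS it was −4.35 with the smaller constant of 1.12 and −2.58 with the larger one of 27.6. MUTE depended on that constant more, with −2.74 and −0.89 in the same comparison, since its intensities are of the order of the constant.

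The order of the group levels, from the highest, was Apex_14DAS, EL_14DAS, Apex_5DAS and ML_35DAS for SPCH. Of the neighbours in that order, Apex_14DAS and EL_14DAS did not pass the test. Their arrays did not overlap after scaling, but as deposited EL_14DAS (172 and 209) enclosed Apex_14DAS (193 and 190). With equal array medians the SPCH change between them was −0.012, so their order is not settled. For MUTE the order was EL_14DAS, Apex_14DAS, Apex_5DAS and ML_35DAS, and no neighbours passed the test. FMA ran EL_14DAS, ML_35DAS, Apex_5DAS and Apex_14DAS, again with no neighbours that passed. STOMAGEN ran EL_14DAS, Apex_14DAS, ML_35DAS and Apex_5DAS, and of its neighbours only ML_35DAS and Apex_5DAS passed, by the call that rested on single arrays. With equal array medians, Apex_14DAS and ML_35DAS changed places in that order.

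Whether the regulators changed unequally was asked within each array, as the log2 value of one minus that of another, for the 6 pairs. These differences were centred on the mean of the 4 groups, since only their change over the groups can be read. FMA minus SPCH was 0.42 and −0.85 in Apex_5DAS, −1.97 and −1.95 in Apex_14DAS, −0.56 and −0.40 in EL_14DAS, and 2.40 and 2.91 in ML_35DAS. With the constant of 7.70, FMA minus SPCH was thus 4.62 log2 units higher in mature leaves than in apices at day 14. That size depends on the constant, because SPCH was near it in mature leaves. In ML_35DAS over Apex_14DAS, SPCH changed by −4.54 with the constant of 1.12 and by −2.74 with that of 27.6. FMA changed by 0.93 and 0.63 there, so the direction was kept. STOMAGEN minus SPCH was −0.18 and −1.49 in Apex_5DAS, −1.25 and −1.25 in Apex_14DAS, −0.30 and −0.10 in EL_14DAS, and 2.18 and 2.39 in ML_35DAS. MUTE minus SPCH was −0.86 and 0.06 in Apex_5DAS, −0.65 and −0.84 in Apex_14DAS, −0.26 and −0.48 in EL_14DAS, and 1.53 and 1.503 in ML_35DAS. For FMA and STOMAGEN minus SPCH, both mature leaf arrays lay above the 6 others. The size of that gap depends on the added constant in both pairs. Nothing is read from MUTE minus SPCH in mature leaves, because both genes were near the added constant there and the F statistic moved with it, from 3.45 at 1.12 to 18.0 at 7.70 and 144 at 27.6.

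STOMAGEN minus FMA moved less but with closely matched replicates: −0.60 and −0.64 in Apex_5DAS, 0.72 and 0.70 in Apex_14DAS, 0.26 and 0.31 in EL_14DAS, and −0.22 and −0.52 in ML_35DAS. The 4 groups did not overlap in it. The Apex_5DAS replicates were farther apart than those of any other group for each of the 4 genes alone, but not in this difference, since STOMAGEN and FMA both read higher on replicate 1. Exact permutation tests over the 105 splits gave p = 0.00952 for STOMAGEN minus FMA, the smallest p possible, and 0.0571 after adjustment over the 6 pairs. FMA minus SPCH had an exact permutation p of 0.0286 (adjusted 0.0857), STOMAGEN minus SPCH 0.0762 (0.129) and MUTE minus SPCH 0.0857 (0.129). FMA minus MUTE (exact permutation p = 0.21, adjusted 0.251) and STOMAGEN minus MUTE (0.429, adjusted 0.429) had the Apex_5DAS replicates far apart. No pair passed 0.05 after adjustment.

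**Figure D3:**
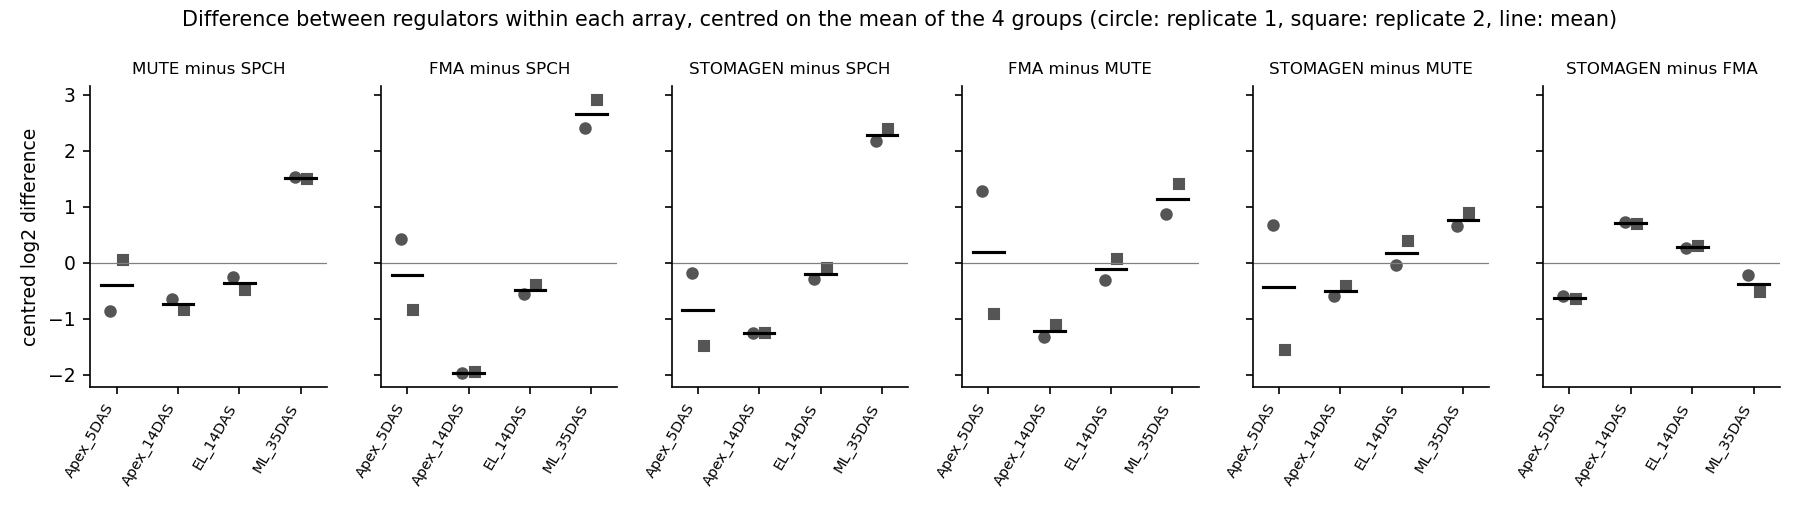
Difference in log2 intensity between 2 regulators within each array, centred on the mean of the 4 groups, for the 6 pairs. Circles are replicate 1, squares replicate 2 and lines the group mean. FMA minus SPCH reaches 2.40 and 2.91 in ML_35DAS, against −1.97 and −1.95 in Apex_14DAS, and STOMAGEN minus FMA separates the 4 groups, from −0.60 and −0.64 in Apex_5DAS to 0.72 and 0.70 in Apex_14DAS.

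Other genes of the pathway were followed through 4 lists of 75 genes in all, covering signalling (33 genes), transcription and division (14), cell polarity (11) and guard cell function (17). Only 4 of the 75 had a probe set named here: AGL16 of the signalling genes, SOL1 of the transcription and division genes, and CHX20 and BLUS1 of the guard cell genes. The partners, receptors, inhibitory peptides and polarity genes were therefore not analysed here. The 4 genes were all tested and each passed in at least 1 comparison.

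SOL1, a CXC-domain factor that acts in the stomatal lineage downstream of the entry factor, was also lowest in mature leaves. Its scaled intensity was 76.3 and 104 in Apex_5DAS, 211 and 200.2 in Apex_14DAS, 184 and 146 in EL_14DAS, and 32.6 and 42.1 in ML_35DAS. It fell in ML_35DAS by 1.94 ± 0.24 against EL_14DAS (adjusted p = 0.000947) and by 2.25 ± 0.24 against Apex_14DAS (adjusted p = 0.000127), both without any 1 array too, and by 1.11 ± 0.24 against Apex_5DAS (adjusted p = 0.00714). The last was kept in 7 of 8 leave-one-out fits and was −1.32 without Apex_5DAS replicate 1. It also rose by 1.14 ± 0.24 in Apex_14DAS over Apex_5DAS (adjusted p = 0.042), a call kept in 1 of the 8 leave-one-out fits and lost without Apex_5DAS replicate 1 (0.93, adjusted p = 0.13).

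CHX20, a cation exchanger of guard cells, had its highest signal in mature leaves, with 20.3 and 17.2 in Apex_5DAS, 8.16 and 11.96 in Apex_14DAS, 11.3 and 41.7 in EL_14DAS, and 65.6 and 80.8 in ML_35DAS. It rose in ML_35DAS by 2.19 ± 0.42 over Apex_14DAS (adjusted p = 0.00351), by 1.61 ± 0.42 over Apex_5DAS (adjusted p = 0.0166) and by 1.40 ± 0.42 over EL_14DAS (adjusted p = 0.0412). These calls were kept in 8, 6 and 3 of 8 leave-one-out fits, and the rise over Apex_5DAS was 1.69 without Apex_5DAS replicate 1. BLUS1, a kinase of the blue light response of guard cells, read 44.6 and 11.4 in Apex_5DAS, 22.5 and 22.1 in Apex_14DAS, 52.0 and 48.1 in EL_14DAS, and 57.0 and 69.6 in ML_35DAS. It rose by 1.24 ± 0.41 in ML_35DAS over Apex_14DAS (adjusted p = 0.042, kept in 2 of 8 leave-one-out fits). These are 2 of 17 listed guard cell genes, and in ML_35DAS over Apex_14DAS, where both passed as higher, 10.3% of all genes did.

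AGL16, a MADS-box factor that a microRNA restrains in the satellite divisions of the lineage, read 66.4 and 88.2 in Apex_5DAS, 139 and 138 in Apex_14DAS, 174 and 171 in EL_14DAS, and 113 and 158 in ML_35DAS. It rose by 1.10 ± 0.24 in EL_14DAS over Apex_5DAS (adjusted p = 0.0174, kept in 6 of 8 leave-one-out fits) and by 0.75 ± 0.24 in ML_35DAS over Apex_5DAS (adjusted p = 0.0369, kept in 1 of 8). Without Apex_5DAS replicate 1 these changes were 0.91 and 0.56, and the change in ML_35DAS did not pass (adjusted p = 0.113).

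Relatives were added after the annotation had been read. TSO1, a CXC-domain factor related to SOL1, fell in ML_35DAS against EL_14DAS (by 0.89 ± 0.23, adjusted p = 0.0219, kept in 4 of 8 leave-one-out fits, and 0.0801 with equal array medians), Apex_14DAS (by 1.58) and Apex_5DAS (by 1.35, with a change of −1.58 without Apex_5DAS replicate 1). bHLH94, another basic helix-loop-helix factor, and the transporter DTX50 passed no comparison. bHLH94 read 11.5 and 5.66 in ML_35DAS, against 52.9 and 20.0 in EL_14DAS.

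Markers of the tissues behind these samples moved too. Of 16 listed genes of dividing cells, 6 had a named probe set: the Aurora kinases AUR1, AUR2 and AUR3, TOPII, BUBR1 and 3xHMG-box2. All 6 fell in ML_35DAS against each other group, with medians of −2.55 over EL_14DAS, −3.94 over Apex_14DAS and −2.98 over Apex_5DAS. Of all genes, 14.5%, 22.2% and 21.3% were lower in these comparisons, with medians of −0.27, −0.32 and −0.26. Without Apex_5DAS replicate 1 the changes of the 6 over Apex_5DAS ran from −4.71 to −2.45. Their summed intensity was 940 and 1514 in Apex_5DAS, 2257 and 2397 in Apex_14DAS, 615 and 991 in EL_14DAS, and 73.5 and 80.9 in ML_35DAS. Like SPCH they were lowest in mature leaves. In EL_14DAS over Apex_14DAS, by contrast, 5 of the 6 fell (median −1.60, against −0.06 for all genes), where SPCH changed by −0.18. Of all 9906 genes, 344 passed as lower in that comparison. Each of those 5 calls was kept in 2 to 6 of the 8 leave-one-out fits, and with equal array medians AUR1 (fell by 0.87, adjusted p = 0.0746) missed the threshold. The part of dividing cells in the fall of SPCH was not tested.

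Genes of the mesophyll, the tissue that makes STOMAGEN, were also read. Of 26 listed photosynthesis genes, 4 had a named probe set (RCA and LHCB4.1 to LHCB4.3), and their summed intensity was 22498 and 13432 in Apex_5DAS, 9972 and 11582 in Apex_14DAS, 16427 and 17595 in EL_14DAS, and 23872 and 21740 in ML_35DAS. STOMAGEN was lowest in Apex_5DAS and highest in EL_14DAS, whereas the sum was lowest in Apex_14DAS and highest on average in ML_35DAS. All 4 photosynthesis genes rose in ML_35DAS over Apex_14DAS (median 1.19, against −0.32 for all genes), whereas STOMAGEN changed by −0.25. Of all genes, 10.3% passed as higher in that comparison. After quantile normalisation RCA (0.30, adjusted p = 0.0796) and LHCB4.1 (0.18, adjusted p = 0.357) did not pass there. In ML_35DAS over EL_14DAS 1 of the 4, LHCB4.3, rose (by 1.56 ± 0.37, adjusted p = 0.016, kept in 5 of 8 leave-one-out fits) and none fell, while STOMAGEN fell, except with equal array medians (adjusted p = 0.101). Of all 9906 genes, 686 passed as higher and 1432 as lower in ML_35DAS over EL_14DAS. The part of mesophyll content in the levels of STOMAGEN was not tested.

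The epidermis, where the lineage lies, was covered by 1 of 11 listed genes. ACR4, a receptor kinase of the outer cell layer, read 68.1 and 67.9 in Apex_5DAS, 45.1 and 34.0 in Apex_14DAS, 25.7 and 42.7 in EL_14DAS, and 25.6 and 12.8 in ML_35DAS, and passed only in ML_35DAS over Apex_5DAS (fell by 1.54 ± 0.33, adjusted p = 0.00632, kept in 7 of 8 leave-one-out fits). The change was −1.53 without Apex_5DAS replicate 1. Where SPCH rose in Apex_14DAS and EL_14DAS over Apex_5DAS, ACR4 changed by −0.69 ± 0.33 and −0.88 ± 0.33 without passing the test. Of 7 meristem genes only CLV3 had a named probe set, and it was filtered out at 13.0 and 13.3 in Apex_5DAS, 4.11 and 9.88 in Apex_14DAS, 2.24 and 3.10 in EL_14DAS, and 4.87 and 0.588 in ML_35DAS. None of 6 vascular genes was covered, and TRY was the 1 of 8 trichome genes that was. With so few markers, the labelled tissues could be checked only in part.

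The chromosomal neighbours of each regulator, in the order of the RefSeq annotation, were read as well. TRY, a MYB protein that inhibits trichome formation, lies directly before SPCH and was highest in mature leaves, where SPCH was lowest. Its scaled intensity was 49.6 and 33.7 in Apex_5DAS, 20.16 and 23.1 in Apex_14DAS, 54.7 and 56.4 in EL_14DAS, and 205 and 180.2 in ML_35DAS. TRY rose in ML_35DAS by 1.66 ± 0.25 over EL_14DAS (adjusted p = 0.00220), by 2.77 ± 0.25 over Apex_14DAS (adjusted p = 4.85e-05) and by 2.04 ± 0.25 over Apex_5DAS (adjusted p = 0.000326). These are the 3 comparisons in which SPCH fell, and TRY kept each call with any 1 array left out (2.27 over Apex_5DAS without Apex_5DAS replicate 1). In EL_14DAS over Apex_14DAS TRY rose by 1.11 ± 0.25 (adjusted p = 0.0311, kept in 2 of 8 leave-one-out fits), where SPCH changed by −0.18, and in EL_14DAS over Apex_5DAS, where SPCH rose, TRY changed by 0.38 without passing. AT5G53220, directly after SPCH, passed no comparison.

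For MUTE, the neighbour AT3G06130 also had lower signal in mature leaves, at 52.5 and 69.9 in ML_35DAS, against 129 and 115 in EL_14DAS (fell by 0.92 ± 0.25, adjusted p = 0.0279, kept in 4 of 8 leave-one-out fits, and 0.124 with equal array medians). It fell by 1.73 ± 0.25 against Apex_14DAS (adjusted p = 0.000727) and by 1.90 ± 0.25 against Apex_5DAS (adjusted p = 0.00046), both in 8 of 8 fits, and the change over Apex_5DAS was −1.81 without Apex_5DAS replicate 1. In EL_14DAS over Apex_5DAS it fell by 0.98 ± 0.25 (adjusted p = 0.0347, kept in 3 of 8 fits), a change that was −0.89 without Apex_5DAS replicate 1 (adjusted p = 0.0857). MKP2, on the other side of MUTE, had no named probe set. AT3G24150, after FMA, passed no comparison, and AT3G24130, before it, was filtered out as low. Of the neighbours of STOMAGEN, GILT was filtered out as low and AT4G12980 rose by 1.47 ± 0.46 in ML_35DAS over Apex_14DAS (adjusted p = 0.0337, kept in 4 of 8 leave-one-out fits, and 0.0529 after quantile normalisation), where STOMAGEN changed by −0.25.

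**Figure D4:**
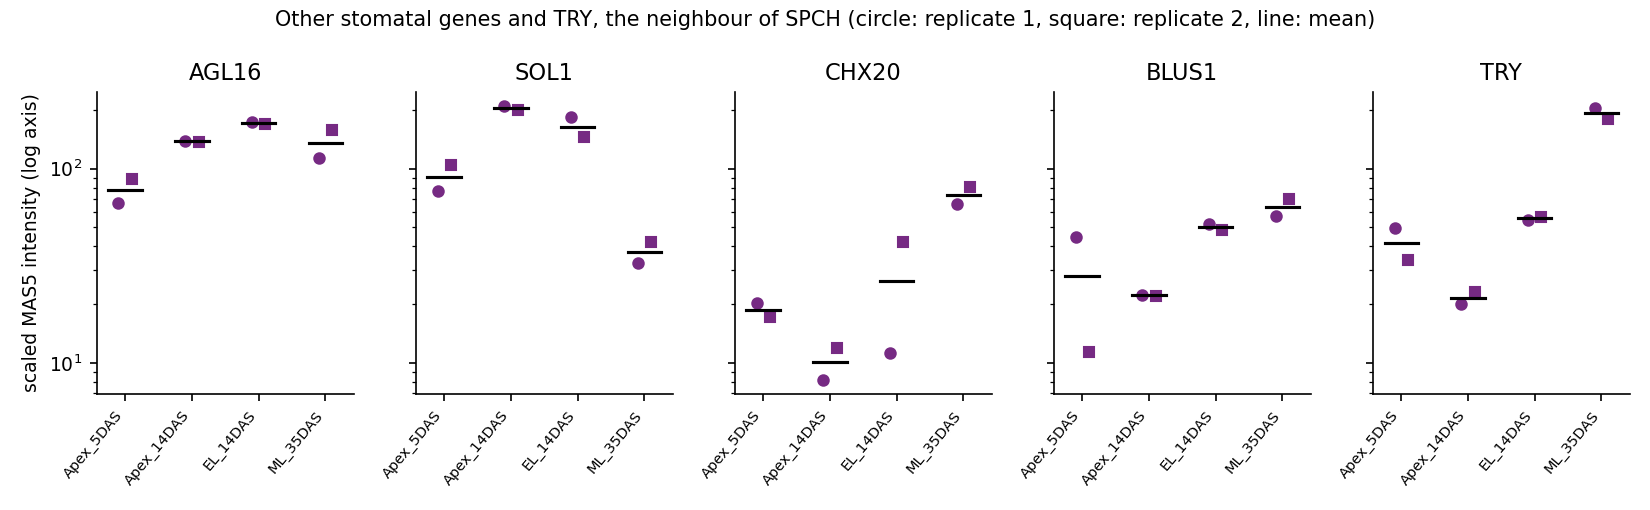
Scaled MAS5 intensity (log axis) of AGL16, SOL1, CHX20, BLUS1 and TRY on each array, by group in order of development. Circles are replicate 1, squares replicate 2 and lines the mean. SOL1 is lowest in ML_35DAS (32.6 and 42.1), while CHX20 (65.6 and 80.8) and TRY (205 and 180.2) are highest there.

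The genes whose profile over the 8 arrays was most like that of each regulator were taken by Pearson's r of log2 values among the 9906 tested, as a description of shared arrays and groups. For SPCH they were BGLU42, a member of the beta-glucosidase family (r = 0.992), AT1G21810 (0.987) and AT3G61100 (0.986). For MUTE they were AT3G51320 (0.984), AT3G57940 (0.981) and AT5G01290 (0.977). AT3G57940 shared with MUTE the low value on Apex_5DAS replicate 1: its log2 intensity was 4.90 there and 6.38 on replicate 2. FMA was most like AT4G38225 (0.986), ATAB2 (0.974) and AT1G01970 (0.962), and STOMAGEN most like AT5G14910 (0.984), AT3G25805 (0.976) and AT3G52155 (0.974). No regulator was among the 3 genes most like another.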

How the data were processed

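The intensities analysed are those the authors deposited. MAS5 had made them, per the submitters' processing notes. Every array in the deposited intensity table had a median of 50; the step that set it is not given in the sources used here. RNA was extracted with a Qiagen kit, per the labels' protocols. The table held 22810 probe sets on 8 arrays. The 64 control probe sets were left out of the tests.

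Of the 22746 others, 13513 had 1 gene in GEO's platform annotation, 503 several and 8730 were not listed there. RefSeq's gene table (assembly TAIR10.1) matched 13436 of the 13513 and gave names and neighbours only. Arrays were multiplied to a common 2% trimmed mean (117 to 175 as deposited, factors 0.757 to 1.14), and 7.70, the 20th percentile, was added before log2. One probe set per gene (highest mean) was kept if above the 30th percentile of its array on at least 2 arrays, which left 9906 genes, all 4 regulators included. limma 3.58.1 in R 4.3.3 fitted 4 group means with an intensity trend, two-sided, with 4 residual degrees of freedom. Exact permutation tests used the one-way F statistic. The procedure was tested on simulated data.

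Named were all regulators, every gene of the 4 pathway lists past 0.05, and the 3 genes most like each regulator. Markers, relatives and neighbours were also read. The regulators and lists were chosen with earlier results of these data known. Alternatives were other scalings, constants, filters, rows and fits, and each array left out. No sequences were used here, and coordinates served only to order the genes along the chromosomes for the neighbours.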

Additional observations from a re-analysis of the deposited data

How the results depend on the processing

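The falls of SPCH in ML_35DAS and the rise of STOMAGEN in EL_14DAS over Apex_5DAS passed under every alternative run. Direction changed in 3 comparisons: MUTE in ML_35DAS over Apex_5DAS (0.33 without Apex_5DAS replicate 2), FMA in Apex_14DAS over Apex_5DAS (0.039 without Apex_5DAS replicate 1) and STOMAGEN in ML_35DAS over Apex_14DAS (0.26 with equal array medians, adjusted p = 0.582). Equal medians also ended the calls of MUTE in ML_35DAS over Apex_14DAS (−1.25) and in the F test (adjusted p = 0.0525), of FMA in EL_14DAS over Apex_5DAS (1.04), of STOMAGEN in ML_35DAS over EL_14DAS (−0.78) and of FMA in the exact permutation test (p = 0.0762), and gave FMA one in ML_35DAS over Apex_5DAS (0.89). Quantile normalisation ended those of MUTE in ML_35DAS over Apex_14DAS (−1.12), over EL_14DAS (−1.36) and in the F test (0.0919), of FMA in EL_14DAS over Apex_5DAS (1.05) and of STOMAGEN in ML_35DAS over Apex_5DAS (0.77). The constant of 1.12 ended those of SPCH in Apex_14DAS over Apex_5DAS (1.52), MUTE in ML_35DAS over Apex_14DAS (−2.49), over EL_14DAS (−2.74) and in the F test (0.0713), and FMA in EL_14DAS over Apex_5DAS (1.10). The constant of 27.6 ended that of STOMAGEN in ML_35DAS over Apex_5DAS (0.71), and MUTE minus SPCH and STOMAGEN minus FMA then passed (both adjusted exact permutation p = 0.0286). Calls also ended with sizes unchanged. Without a filter, with more genes tested, these were SPCH in Apex_14DAS over Apex_5DAS (1.44), MUTE in ML_35DAS over Apex_14DAS (−1.53), over EL_14DAS (−1.73) and in the F test (0.0679), FMA in EL_14DAS over Apex_5DAS (1.00), over Apex_14DAS (1.30) and in ML_35DAS over Apex_14DAS (0.83), and STOMAGEN in ML_35DAS over Apex_5DAS (0.78). Without the intensity trend they were SPCH in Apex_14DAS over Apex_5DAS (1.44), FMA in EL_14DAS over Apex_5DAS (1.00) and ML_35DAS over Apex_14DAS (0.83), and STOMAGEN in ML_35DAS over Apex_5DAS (0.78). With only the 2 groups compared, and so fewer arrays, they were SPCH in Apex_14DAS (1.44) and EL_14DAS (1.27) over Apex_5DAS, FMA in EL_14DAS over Apex_5DAS (1.00) and STOMAGEN in ML_35DAS over Apex_5DAS (0.78), while STOMAGEN in EL_14DAS over Apex_14DAS passed (0.88). The cause was not tested where none is named. The labels number replicates 1 and 2 in every group. Same-numbered arrays deviated with correlations of −0.09 to 0.31, the highest between Apex_14DAS and EL_14DAS, so a pairing by number was not settled. A replicate block in the limma fit ended 1 call, FMA in EL_14DAS over Apex_5DAS (1.00, adjusted p = 0.0544). Over the arrays left out, in the order Apex_14DAS, EL_14DAS and ML_35DAS over Apex_5DAS, then EL_14DAS and ML_35DAS over Apex_14DAS, then ML_35DAS over EL_14DAS, SPCH ran from 1.15 to 1.73, 0.97 to 1.56, −2.64 to −2.05, −0.25 to −0.10, −4.07 to −3.50 and −3.89 to −3.33; MUTE from 0.35 to 1.86, 0.55 to 2.05, −1.18 to 0.33, 0.07 to 0.33, −1.82 to −1.23 and −2.02 to −1.43; FMA from −0.64 to 0.039, 0.66 to 1.34, 0.19 to 0.87, 1.15 to 1.46, 0.80 to 0.86 and −0.62 to −0.32; STOMAGEN from 0.67 to 1.39, 1.55 to 2.27, 0.41 to 1.14, 0.70 to 1.05, −0.43 to −0.07 and −1.31 to −0.95. The F test's adjusted p ran from 0.00428 to 0.157 for MUTE and from 0.00300 to 0.0737 for FMA. The number of all genes past the threshold, in the same order, was 254, 966, 3196, 624, 3225 and 2118, and ran over the arrays left out from 27 to 1786, 319 to 1771, 1416 to 3593, 95 to 1218, 1490 to 4087 and 484 to 3189. For the F test it was 3505 and ran from 1498 to 5106. Apex_14DAS over Apex_5DAS had 90 without a filter, 64 without the trend and 28 with only the 2 groups. EL_14DAS over Apex_5DAS had 349 with only the 2 groups, and EL_14DAS over Apex_14DAS had 354 without a filter and 341 without the trend. With all 17837 probe sets that passed the filter, named or not, the 6 counts were 630, 2024, 6001, 1334, 6103 and 3926. Signal limits MUTE most, since 3 of its 8 values were under the 30th percentile of their array.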
